A study of Mus musculus with 18 samples.

Results

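The genes described here are 9 members of the transcript set that marks the two-cell-like state of mouse embryonic stem cells, namely Zscan4a, Zscan4b, Zscan4c, Zscan4d, Zscan4e, Zscan4f, Tcstv1, Tcstv3 and Zfp352. They were taken by gene symbol from an expression table of 54532 genes, and all 9 symbols were found there. The table covers 18 libraries of polyadenylated RNA from ES-E14TG2a, an embryonic stem cell line from mouse. The lines carry the names Ctrlv2, Arf-B and Arf-C, and each was sampled at day 0 and at day 8 of a protocol aimed at pancreatic differentiation, with 3 replicates in each of the 6 groups. Day 0 cells came from culture with serum and leukaemia inhibitory factor on gelatine. The protocol began with activin A and Matrigel, and retinoic acid with FGF10 followed from day 4 until day 8. The series title names p19Arf, a product of the Cdkn2a locus, but every library carries the genotype label wild type. The sources used here do not say how Arf-B and Arf-C were made, or whether each is a single clone. Nothing states that replicates were separate cultures, so the p-values measure only the spread between these samples, which may be technical.

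Zscan4 genes encode proteins with a SCAN domain and zinc fingers. They are transcribed in the two-cell embryo at the start of zygotic transcription, and in culture they come on for short periods in a small fraction of embryonic stem cells, where they are known for their part in telomere upkeep. Tcstv1 and Tcstv3 are two-cell-stage genes that lie in a cluster of related copies, and Zfp352 encodes a zinc finger protein of the early embryo. Retinoic acid is known to raise the fraction of Zscan4-positive cells in embryonic stem cell cultures. In bulk RNA such as this, fewer cells of a type and less RNA per cell cannot be told apart.

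The 6 Zscan4 members lie side by side on chromosome 7 (mm10), from the start of Zscan4a at 10794242 to the end of Zscan4f at 11402318. Zscan4c (11005745 to 11010547) and Zscan4f are on the plus strand, and Zscan4a, Zscan4b, Zscan4d (11161374 to 11166159) and Zscan4e are on the minus strand. The table labels Zscan4a an unprocessed pseudogene and the other 5 protein coding. It also holds Zscan4-ps1, Zscan4-ps2 and Zscan4-ps3 in the same region, which are not members. Tcstv1 (119893388 to 119894785) and Tcstv3 (120316878 to 120318178) are on chromosome 13, and Zfp352 (90218820 to 90225702) is on chromosome 4. The values are whole-gene values over the exons of each gene.

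These copies are close to identical, so the value of a single copy depends on how reads that match several copies were assigned, and the sources used here give neither this nor the read length. Between the longest annotated transcripts of the 9 Zscan4 rows, identity ran from 96.6% to 99.8%. The upstream stretches of 4 copies show the same likeness. They are the 250 bases before the RefSeq start (build GRCm38.p6), written 5′ to 3′ on the strand of the gene, with capitals marking TATAAA and the AGGTCA core of retinoic acid receptor sites, the latter written TGACCT where it lies on the other strand. Zscan4b is at chr7:10905051-10905300 (minus strand), Zscan4f at chr7:11397665-11397914 (plus), Zscan4c at chr7:11005495-11005744 (plus) and Zscan4d at chr7:11166149-11166398 (minus).
Zscan4b: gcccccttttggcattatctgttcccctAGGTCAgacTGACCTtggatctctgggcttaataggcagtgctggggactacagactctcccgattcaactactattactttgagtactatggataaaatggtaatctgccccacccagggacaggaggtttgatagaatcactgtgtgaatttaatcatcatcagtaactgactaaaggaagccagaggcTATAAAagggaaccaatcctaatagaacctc
Zscan4f: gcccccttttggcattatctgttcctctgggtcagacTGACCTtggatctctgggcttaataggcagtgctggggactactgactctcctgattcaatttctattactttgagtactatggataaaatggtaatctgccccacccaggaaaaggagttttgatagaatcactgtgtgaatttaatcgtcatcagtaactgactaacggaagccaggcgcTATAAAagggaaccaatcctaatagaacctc
Zscan4c: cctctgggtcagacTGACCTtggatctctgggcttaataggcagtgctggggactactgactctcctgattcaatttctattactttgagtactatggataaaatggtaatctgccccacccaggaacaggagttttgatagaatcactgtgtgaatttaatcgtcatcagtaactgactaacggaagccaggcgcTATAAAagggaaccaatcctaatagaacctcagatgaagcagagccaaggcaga
Zscan4d: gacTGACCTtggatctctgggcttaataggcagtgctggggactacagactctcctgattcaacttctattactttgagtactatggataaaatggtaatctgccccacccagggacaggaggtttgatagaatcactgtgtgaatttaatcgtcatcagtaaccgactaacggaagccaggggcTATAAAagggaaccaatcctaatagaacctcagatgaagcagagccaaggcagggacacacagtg
The 4 stretches were 94.7% to 99.6% identical in pairs. Zscan4b and Zscan4f have TATAAA with its first base at position -31 from the start, Zscan4c at -54 and Zscan4d at -65, inside one shared stretch that the 4 annotated starts cut at different places. TATAAA occurs in the same window, on either strand, in 12.4% of 32851 RefSeq promoters. AGGTCA occurs in 14.0% of them. It begins at -222 and -213 in Zscan4b, at -213 in Zscan4f, at -236 in Zscan4c and at -247 in Zscan4d. The Zscan4 binding motif TGCACAC (3.67% of promoters), the inverted-repeat motif of Dux (0.0304%) and exact direct repeats of AGGTCA with 5 or 2 bases between them (0.00913% each) did not occur in these 4 windows or in that of Zfp352. RefSeq promoters were matched for 5 of the 9 members, and Zscan4a, Zscan4e, Tcstv1 and Tcstv3 were not matched.

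How far a read can tell the copies apart was computed from the annotated transcripts (GENCODE vM21, in which all 9 members have the position that the table gives). For Zscan4d 87.0% of windows of 150 bases occurred in no other gene, and for Zscan4a 74.9%. The shares were 39.0% for Zscan4c, 33.6% for Zscan4b, 25.0% for Zscan4e and 22.6% for Zscan4f. With windows of 100 bases they fell to 70.4% for Zscan4d, 60.9% for Zscan4a and between 18.5% and 27.2% for the other 4. Tcstv1 and Tcstv3, whose transcripts were 87.7% identical over 749 aligned bases, and Zfp352 had 100% of their windows of 150 bases to themselves. With windows of 100 bases the shares were 96.4% for Tcstv1, 92.2% for Tcstv3 and 99.4% for Zfp352. With windows of 50 bases they were 85.0%, 68.6% and 92.9%, so short reads of Tcstv3 could also match other genes. Values for Zscan4b, Zscan4c, Zscan4e and Zscan4f are therefore given as uncertain between copies, and sums over the 6 members and over all 9 rows are given beside them.

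**Figure D1:**
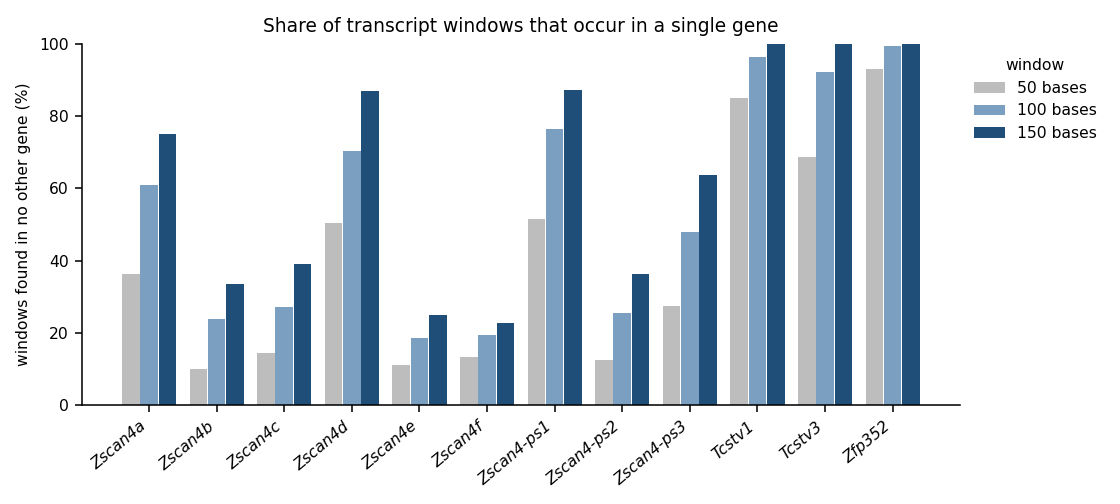
Share of windows of 50, 100 and 150 bases in each gene's annotated transcripts that are found in no other gene (bars, percent, from 0 to 100). Zscan4d (87.0%) and Zscan4a (74.9%) are the most separable of the 6 Zscan4 members at 150 bases, Zscan4f (22.6%) the least.

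The day 0 libraries held the embryonic stem cell markers that their label names. The 10 markers fixed for this check summed to 4366 to 5455 FPKM (fragments per kilobase of gene, scaled to library size) there, and none of the 10 was at 0. Libraries of day 0 held 22945409 to 33311220 reads on genes, and those of day 8 held 10432590 to 22222425, so 3 reads on a gene of 1 kilobase stood for 0.093 to 0.282 FPKM. No library was a copy of another.

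At day 0 the members were near the limit of detection in all 3 lines. The summed FPKM of the 6 Zscan4 members was 0.419, 0.863 and 1.30 in the 3 Ctrlv2 libraries, which rest on 25, 47 and 87 reads. In Arf-B it was 0.664, 1.09 and 0.560 (43, 69 and 27 reads). In Arf-C it was 0.239, 0.0302 and 0.266, on 12, 2 and 14 reads. All 3 Arf-C libraries lay below all 3 Ctrlv2 and all 3 Arf-B libraries, and Arf-B overlapped Ctrlv2. Of the genes tested below, 50.8% did not overlap between Arf-C and Ctrlv2 at day 0, and 16% between the Arf lines. The highest single value among the 6 members at day 0 was 0.443 FPKM, for Zscan4f in Ctrlv2 replicate 3.

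The other 3 members were mostly without reads at day 0. Zfp352 had 11 reads in Ctrlv2 replicate 3 (0.150 FPKM) and none in the other 8 day 0 libraries. Tcstv3 had 2 reads in Arf-B replicate 3 (0.117 FPKM) and none elsewhere. Tcstv1 had 1 read in Ctrlv2 replicate 2 (0.0284 FPKM). A count of 0 allows up to 3 reads, counting error only, so a level of this size could not be told from absence.

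The question of the line comparison at day 0 is whether undifferentiated Arf cells differ from Ctrlv2 cells in these genes. Differences were tested with limma on log2(FPKM + 1), over the 17200 genes that reached 0.5 FPKM in 3 or more libraries, and a gene was called at a Benjamini-Hochberg adjusted p below 0.05. Log2 differences are given with their sign. Of the 8 members tested (Tcstv1 was too low) limma called 0 between Arf-B and Ctrlv2 and 0 between Arf-C and Ctrlv2, where 39% and 42.8% of all genes tested were called. At an unadjusted p below 0.05 the counts were also 0 and 0, and voom on read counts rebuilt from the FPKM values called 0 and 0. Between Arf-B and Arf-C at day 0 limma called 0 members (0 unadjusted, 0 with voom), with 0.343% of all genes called. These levels leave little room on the log2(FPKM + 1) scale, which compresses differences below 1 FPKM.

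By day 8 every Zscan4 copy was higher, in all 3 lines. The summed FPKM of the 6 members was 38.9, 29.6 and 35.7 in Ctrlv2, on 1274, 667 and 952 reads. Arf-B was at 27.1, 26.3 and 45.7, and Arf-C at 16.7, 26.8 and 42.0. Even the lowest day 8 library, Arf-C replicate 1, lay above every day 0 library. The 3 lines overlapped at day 8, and the means were 34.7 ± 4.74 for Ctrlv2, 33.0 ± 11.0 for Arf-B and 28.5 ± 12.7 for Arf-C (SD, n = 3 each). Over all 9 Zscan4 rows, with Zscan4-ps1, Zscan4-ps2 and Zscan4-ps3 included, the means at day 8 were 50.3 ± 6.89, 49.5 ± 16.4 and 41.9 ± 18.9 FPKM, against 1.21 ± 0.488, 1.05 ± 0.294 and 0.275 ± 0.172 at day 0.

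**Figure D2:**
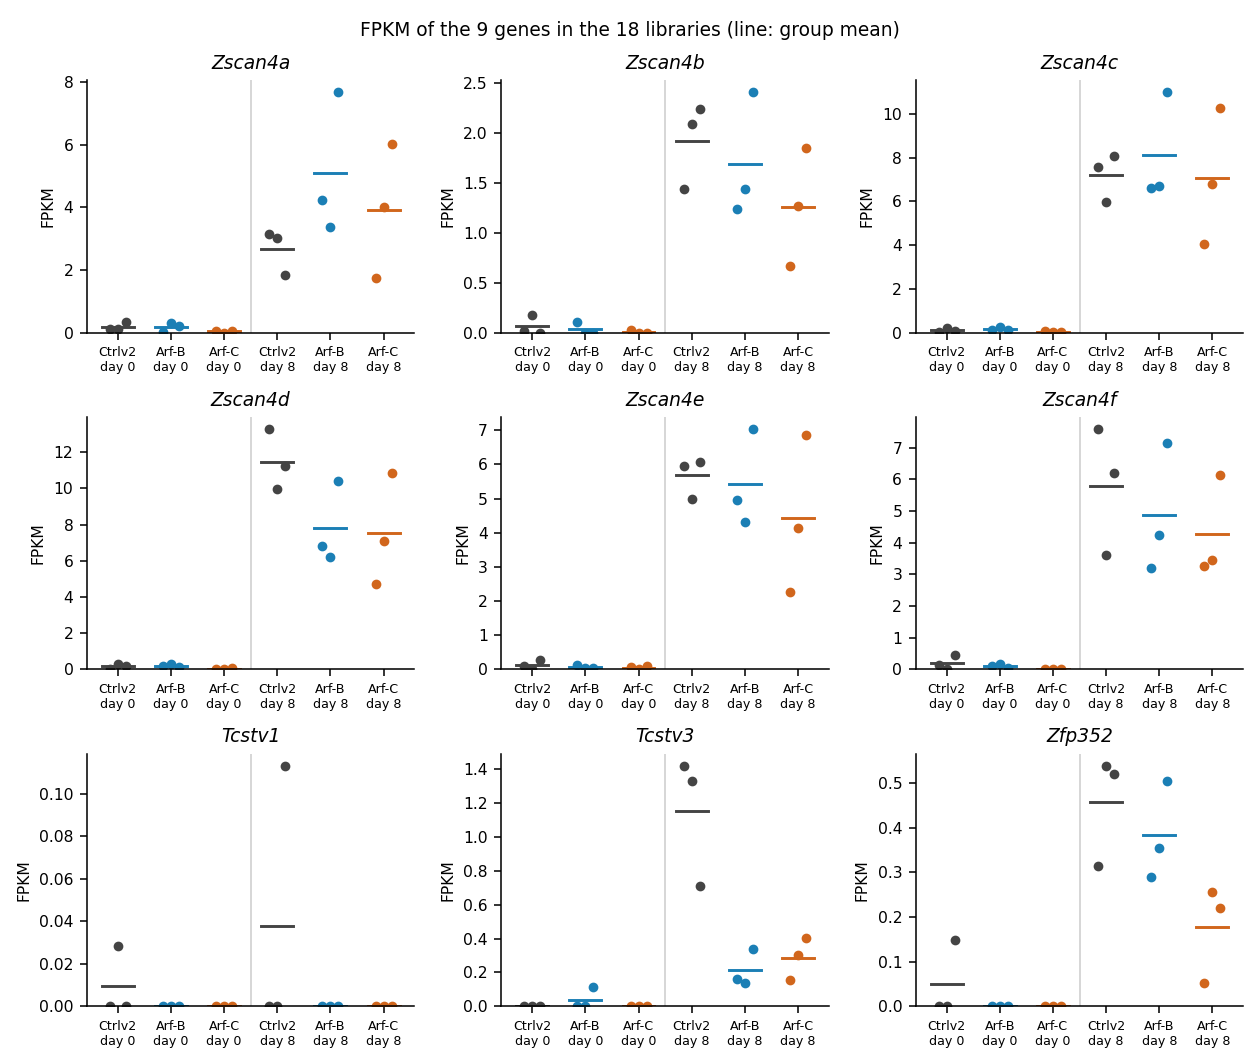
FPKM (linear axis from 0, a separate scale for each gene) of the 9 members in each of the 18 libraries, grouped by line and day. Points are libraries and lines are means of 3. The 6 Zscan4 panels are near 0 at day 0 and rise in every line, Tcstv3 rises mainly in Ctrlv2, and Tcstv1 has reads in only 2 libraries.

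Zscan4d, of the 6 Zscan4 members the one best separated by sequence, was the most abundant member in Ctrlv2 at day 8, at 13.3, 9.95 and 11.2 FPKM. In Arf-B it was at 6.84, 6.23 and 10.4, and in Arf-C at 4.71, 7.12 and 10.9. At day 0 its group means were 0.174 ± 0.142 for Ctrlv2, 0.210 ± 0.0976 for Arf-B and 0.0402 ± 0.0409 for Arf-C (SD, n = 3). The rise was 3.41 on the log2(FPKM + 1) scale in Ctrlv2 (SE 0.21, adjusted p = 8.08e-10). It was 2.84 in Arf-B (adjusted p = 8.53e-09) and 2.98 in Arf-C (5.08e-09). In Arf-B and Arf-C its day 8 mean was close to that of Zscan4c, at 7.84 against 8.09 FPKM and 7.56 against 7.04.

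Zscan4c, the copy whose promoter is widely used in reporter lines, was at 7.55, 5.96 and 8.09 FPKM in Ctrlv2 at day 8. In Arf-B it was at 6.61, 6.69 and 11.0, and in Arf-C at 4.06, 6.78 and 10.3. The 3 lines overlapped, and the rises were 2.88, 2.93 and 2.89 on the log2(FPKM + 1) scale (SE 0.22 each). Zscan4e rose to 5.68 ± 0.600 FPKM for Ctrlv2, 5.44 ± 1.42 for Arf-B and 4.43 ± 2.32 for Arf-C (SD, n = 3). Zscan4f rose to 5.80 ± 2.02, 4.86 ± 2.04 and 4.29 ± 1.60 FPKM. Zscan4b was the lowest of the 6, at 1.92 ± 0.424, 1.69 ± 0.626 and 1.26 ± 0.590 FPKM.

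Zscan4a, the copy labelled a pseudogene, was at 3.13, 3.02 and 1.84 FPKM in Ctrlv2 at day 8. In Arf-B it was at 4.23, 3.38 and 7.67, and in Arf-C at 1.75, 4.00 and 6.02. All 3 Arf-B libraries lay above the 3 of Ctrlv2, and Arf-C overlapped them. At day 8, 46.4% of all genes tested did not overlap between Arf-B and Ctrlv2, in either direction. The rise of Zscan4a from day 0 was 1.61 for Ctrlv2, 2.31 for Arf-B and 2.15 for Arf-C on the log2(FPKM + 1) scale (SE 0.29 each). As ratios of group means, the rise of the 6 copies was between 14.4-fold (Zscan4a) and 67.3-fold (Zscan4c) in Ctrlv2, and between 27.8-fold (Zscan4a) and 70.6-fold (Zscan4e) in Arf-B. The day 0 means behind them rest on 9 to 38 reads per copy over the 3 libraries of Ctrlv2. In Arf-B they rest on 6 to 40, with 12 for Zscan4e, so the ratios of single copies are imprecise. In Arf-C the day 0 means rest on 1 to 7 reads per copy in all 3 libraries together, so no ratio is given.

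Of the 8 members tested, the day response was called in 8 for Ctrlv2, 7 for Arf-B and 7 for Arf-C, each time upward, while 33.9%, 32.9% and 32.8% of all genes tested were called higher. The 8 passed the filter on low values through day 8 libraries alone, so a rise was already favoured by the filter and the count supports nothing beyond the values given above. The medians over the 8 were 2.04, 2.33 and 2.21 (log2), beside -0.01, -0.02 and -0.02 over all genes. The member not called in Arf-B was Tcstv3, and in Arf-C Zfp352. In each of the 3 lines all 8 had their day 8 libraries above their day 0 libraries, and of all genes tested 68.9% (Ctrlv2), 72.7% (Arf-B) and 70.3% (Arf-C) did not overlap between days, in either direction.

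Tcstv3 had the largest differences between Ctrlv2 and the Arf lines on the log2 scale. At day 8 it was at 1.42, 1.33 and 0.710 FPKM in Ctrlv2, from 17, 11 and 7 reads. In Arf-B it was at 0.159, 0.138 and 0.341 (3, 2 and 6 reads), and in Arf-C at 0.155, 0.300 and 0.404 (2, 4 and 5 reads). All 3 Ctrlv2 libraries lay above all 6 Arf libraries. At day 8, 46.4% (Arf-B) and 44.7% (Arf-C) of all genes tested did not overlap with Ctrlv2, in either direction. From day 0 Tcstv3 rose by 1.09 in Ctrlv2 (SE 0.12, adjusted p = 7.03e-07) and by 0.36 in Arf-C (adjusted p = 0.0162), and the difference in Arf-B was 0.22 (adjusted p = 0.122). The day 8 mean was 25.9 times the floor of 3 reads over the day 0 group in Ctrlv2 and 5.85 times in Arf-C. These folds leave out the counting error of day 8, which rests on 35 and 11 reads, so they are no lower bounds. The Arf-C call was lost without replicate 3 of day 8 (adjusted p = 0.0696), and the Arf-B difference was called with voom (adjusted p = 0.00608) and with a pseudocount of 0.1 (0.0165).

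Zfp352 was low throughout, at 0.313, 0.538 and 0.521 FPKM in Ctrlv2 at day 8, from 11, 13 and 15 reads. In Arf-B it was at 0.290, 0.355 and 0.505 (16, 15 and 26 reads), and in Arf-C at 0.0531, 0.257 and 0.221 (2, 10 and 8 reads). It rose by 0.47 in Ctrlv2 (SE 0.10, adjusted p = 5.05e-04) and by 0.47 in Arf-B (adjusted p = 5.99e-04), and in Arf-C the difference was 0.23 (adjusted p = 0.0508). The Arf-C difference was called in 6 of 13 alternatives, which were a pseudocount of 0.1 (adjusted p = 0.0112), no filter (0.0448), the same FPKM sum (0.0410), a replicate block (0.0354), voom (5.49e-04) and the fit without replicate 1 of Arf-C at day 8 (0.0171). Over all 13 the adjusted p ran from 5.49e-04 to 0.166. In the Arf lines, where day 0 held no read, the day 8 mean was 23.9 times the floor in Arf-B and 10.6 times in Arf-C. The counting error of day 8, on 57 and 20 reads, is left out here too. The gene passed the filter on exactly 3 libraries, the lowest of them at 0.505 FPKM. Tcstv1 was far below the filter, with 0 libraries at 0.5 FPKM and 16 of 18 libraries without a read. At day 8 it was detected in 1 library alone, with 2 reads in Ctrlv2 replicate 3 (0.113 FPKM).

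At day 8 Arf-B had 1 of the 8 members called against Ctrlv2, against 33.2% of all genes tested, and Arf-C had 3, against 33.6%. The calls were downward, where 16.9% and 16.8% of all genes were called lower. Without overlap with Ctrlv2 were 2 of the 8 members in each Arf line, where 46.4% and 44.7% of all genes did not overlap. The medians over the 8 members were -0.10 in Arf-B and -0.37 in Arf-C (log2), and those over all genes 0.01 in each. Tcstv3 was lower in both, at -0.81 in Arf-B (SE 0.12, adjusted p = 9.14e-05) and at -0.73 in Arf-C (adjusted p = 2.47e-04). The ratio of means was 0.185 and 0.249. Tcstv3 passed the filter through its 3 Ctrlv2 libraries, so the filter favoured this direction, and with no filter the adjusted p was 1.67e-04 and 4.21e-04. Its day response differed from that of Ctrlv2 in both lines, by -0.87 in Arf-B (SE 0.17, adjusted p = 0.00116) and by -0.73 in Arf-C (adjusted p = 0.00344). With 2 reads at day 0 in Arf-B and none in Ctrlv2 and Arf-C, these largely repeat the day 8 differences. The filter favoured the differences of day response in the same way, and with no filter the adjusted p was 0.00183 and 0.00531. The Arf-C difference was not called with voom (adjusted p = 0.180). It was the only one of the 8 members whose day response was called different, where 33.5% and 38.3% of all genes were.

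The other 2 calls were in Arf-C and depended on the fit. Zscan4d was lower, at -0.60 (SE 0.21, adjusted p = 0.0410), with overlapping libraries and a ratio of means of 0.659. The call was lost in 9 of 14 alternatives, among them voom (adjusted p = 0.0614), a pseudocount of 0.1 (0.209) and the 2 compared groups fitted alone (0.136). It was also lost without replicate 1 or 3 of Ctrlv2 (0.133 and 0.0794) or replicate 1 or 2 of Arf-C (0.205 and 0.0906). Zfp352 was lower, at -0.31 (SE 0.10, adjusted p = 0.0249), without overlap and with a ratio of means of 0.387. The filter was passed through 2 libraries of Ctrlv2 and 1 of Arf-B, which favoured this direction. The call was lost in 6 of 13 alternatives, with voom (adjusted p = 0.0792) and without replicate 2 or 3 of Ctrlv2 (0.0818 and 0.0749) or replicate 1 of Arf-C (0.111) among them.

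The remaining Zscan4 copies were not called between lines at day 8. Zscan4a was at 0.69 in Arf-B (SE 0.29, adjusted p = 0.0773), and it was called there without replicate 2 of Arf-B (adjusted p = 0.0412) and with libraries scaled to the same FPKM sum (0.0462). In Arf-C it was at 0.35 (adjusted p = 0.388), and it was called without replicate 1 of Arf-C (0.0384). Zscan4d was at -0.52 in Arf-B (adjusted p = 0.0742), and it was called without replicate 3 of Arf-B (0.0217). Zscan4b, Zscan4e and Zscan4f were at -0.13, -0.07 and -0.22 in Arf-B and at -0.39, -0.39 and -0.36 in Arf-C. Without replicate 3 of Arf-C, its highest library, Zscan4b (adjusted p = 0.0229) and Zscan4e (0.0101) were called lower, which made 5 calls. Between Arf-B and Arf-C at day 8 limma called 0 of the 8 members (1 at an unadjusted p below 0.05, 0 with voom), and 0.0581% of all genes.

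Undifferentiated markers moved with this comparison. At day 8 the 10 embryonic stem cell markers summed to 115 to 145 FPKM for Ctrlv2, 679 to 915 for Arf-B and 570 to 950 for Arf-C. Of the 10, 10 were called higher in Arf-B and 9 in Arf-C, where 16.3% and 16.8% of all genes tested were called higher. The 9 primitive and parietal endoderm markers summed to 362 to 477 FPKM for Ctrlv2, 110 to 114 for Arf-B and 115 to 123 for Arf-C, and 8 of 9 were called lower in each Arf line. Called lower were 16.9% and 16.8% of all genes tested. No marker of either list was at 0 in all libraries of a group, and Nanog was at 0 in Ctrlv2 replicate 2. The part of these cells in the differences of Tcstv3, Zfp352 and Zscan4d was not tested.

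Within the summed Zscan4 signal of day 8, 3 copies made up shares that did not overlap between Ctrlv2 and the Arf lines. Of the summed FPKM of all 9 Zscan4 rows, Zscan4d made up 23.4%, 23.1% and 22.0% in Ctrlv2. The shares were 16.8%, 15.8% and 15.2% for Arf-B and 19.6%, 17.9% and 17.6% for Arf-C. All 6 Arf libraries lay below the 3 of Ctrlv2. Zscan4a went the other way, with means of 5.37% ± 1.71 for Ctrlv2, 10.1% ± 1.36 for Arf-B and 9.02% ± 1.52 for Arf-C (SD, n = 3). Zscan4c was at 14.3% ± 1.33, 16.4% ± 0.482 and 16.9% ± 0.176. Neither Arf line overlapped Ctrlv2 in Zscan4a or Zscan4c, and the other 6 rows overlapped in both comparisons. In level, 46.4% (Arf-B) and 44.7% (Arf-C) of all genes tested did not overlap with Ctrlv2 at day 8, so such rows are common. An exact two-sided permutation test gave p = 0.10 for each of the 3 rows in each Arf line, the smallest that 3 against 3 allows (0.30 after adjustment over 18 tests). Any row without overlap reaches this p, so it adds nothing to the lack of overlap. These shares were chosen for description after the values were seen, and shares of a sum are not independent of each other. Of the 6 Zscan4 members, Zscan4d and Zscan4a are the 2 with the most windows of 150 bases of their own (87.0% and 74.9%). Zscan4c has 39.0%. Of all 9 rows Zscan4-ps1 has the most, 87.4%, and its shares overlapped. The part of read assignment in these shares was not tested.

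**Figure D3:**
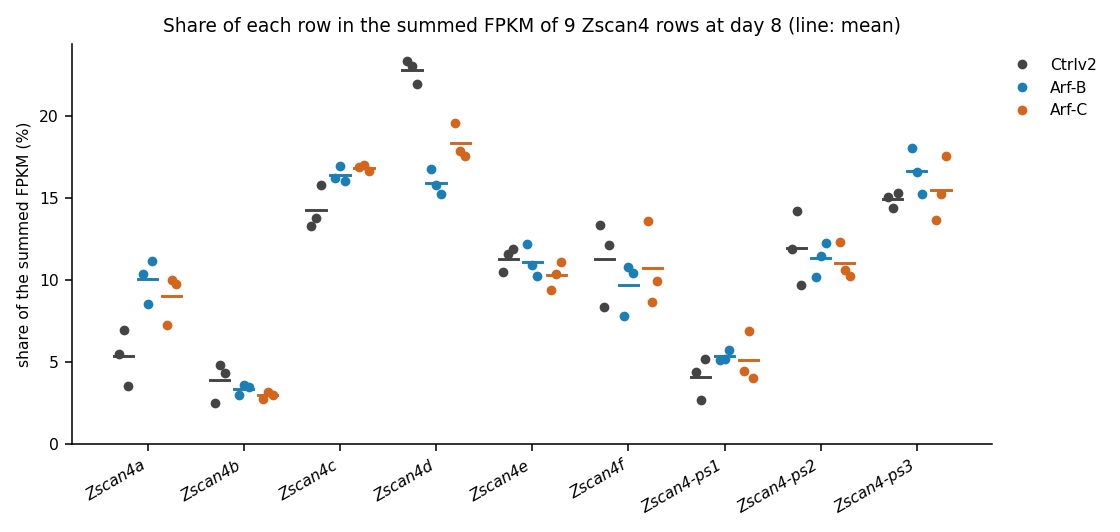
Share of each Zscan4 row in the summed FPKM of the 9 rows (percent, axis from 0) in the day 8 libraries of the 3 lines. Points are libraries and lines are means of 3. Zscan4d lies at 22.0% to 23.4% in Ctrlv2 and at 15.2% to 19.6% in the Arf libraries, while Zscan4a is higher in the Arf libraries.

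The level of the cluster varied between libraries of one group, and in the Arf lines the 6 members were highest in the same library. In Arf-C at day 8 the ratio of the highest to the lowest library was between 1.87 (Zscan4f) and 3.44 (Zscan4a) for the 9 Zscan4 rows, and replicate 1 was the lowest and replicate 3 the highest for all 6 members. In Arf-B replicate 3 was the highest for all 6. In Ctrlv2 the ratios were between 1.22 (Zscan4e) and 2.28 (Zscan4-ps1), and the copies did not share an order. There Zscan4a was at 3.13, 3.02 and 1.84 FPKM in replicates 1, 2 and 3 and Zscan4b at 1.44, 2.09 and 2.24, while Zscan4c, Zscan4d, Zscan4e and Zscan4f were lowest in replicate 2. Correlations of deviations from the group means follow as descriptions. They are over the 9 day 8 libraries, whose genes share depth and library. For the 9 Zscan4 rows against the summed members, which contain 6 of them, r was between 0.812 and 0.993. Tcstv3 was at 0.526 and Zfp352 at 0.547.

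Genes with the most similar pattern were picked by a fixed rule, by r with the summed Zscan4 level over the 18 libraries. They were Gm21761 (r = 0.994), Zscan4-ps3 (0.993), Gm8332 (0.993), Zscan4-ps2 (0.991) and Sfrp5 (0.991), a gene for a secreted Wnt-binding protein. Gm21761 lies on chromosome 13 between 119912095 and 119929272, near Tcstv1. It was at 25.8 ± 3.12 FPKM for Ctrlv2, 19.5 ± 6.88 for Arf-B and 16.4 ± 6.32 for Arf-C at day 8, and at most 1.38 at day 0. Gm8332 on chromosome 12 was at 32.5 ± 6.05, 23.6 ± 6.57 and 23.4 ± 11.3 FPKM at day 8 (SD, n = 3).

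By deviations from the group means over the 18 libraries, the genes most like the cluster were Zfp42 (r = 0.923), Gm4971 (0.902), Gm8332 (0.881), Zfp961 (0.881) and Spesp1 (0.879). Zfp42 encodes Rex1, a zinc finger protein of naive embryonic stem cells. It ran opposite to Zscan4 between days, from 504 ± 38.4 to 12.5 ± 1.32 FPKM in Ctrlv2. Within Arf-C at day 8 it ran alongside, at 29.6, 42.7 and 57.4 FPKM in replicates 1, 2 and 3. Its Arf-B values were 34.1, 34.7 and 45.3 FPKM, where replicate 3 was the highest in both and the order of replicates 1 and 2 was the opposite of that in summed Zscan4. In Ctrlv2 it was at 12.9, 11.0 and 13.5 FPKM, below all 6 Arf libraries, although their summed Zscan4 levels overlapped. Other markers of the undifferentiated state also ran alongside within lines. Over the 9 day 8 libraries r was 0.961 for Dppa5a, 0.955 for Sox2, 0.948 for Esrrb and 0.904 for Nanog, and -0.00187 for Tdgf1. Cyp26a1, the retinoic acid degrading enzyme, was at -0.789. The 10 embryonic stem cell markers had a median r of 0.896 and all genes tested -0.0413.

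**Figure D4:**
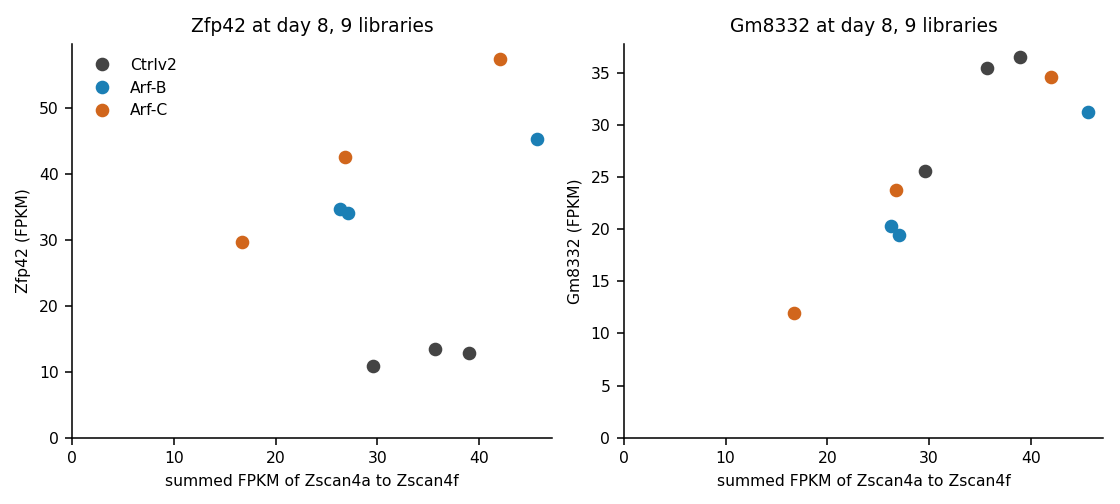
Zfp42 (left) and Gm8332 (right), in FPKM, against the summed FPKM of Zscan4a to Zscan4f in the 9 day 8 libraries, both axes linear from 0. In Arf-C Zfp42 is higher in the libraries with more Zscan4, in Arf-B replicate 3 is the highest in both, and the 3 Ctrlv2 libraries lie lower, between 11.0 and 13.5 FPKM of Zfp42.

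Other transcripts of the two-cell-like state rose over the same days. The list has 46 genes, of which 39 are in the table and 24 were tested. Of the 24, 22 were called higher at day 8 for Ctrlv2, 21 for Arf-B and 22 for Arf-C, with medians of 1.59, 1.54 and 1.35 (log2). Called higher were 33.9%, 32.9% and 32.8% of all genes tested. Most of the 24 were below 0.5 FPKM in every day 0 library, so the filter again favoured a rise. The largest changes were in Gm20767 (3.02, 2.35 and 2.55 in Ctrlv2, Arf-B and Arf-C), Gm8994 (2.75, 2.71 and 2.85), Gm5662 (2.15, 2.73 and 2.97), Gm2016 (2.26, 2.70 and 2.60) and Gm8300 (2.38, 2.67 and 2.43). Usp17lb, of a multicopy family of ubiquitin-specific proteases, rose by 2.40, 1.51 and 1.41. In Ctrlv2 2 of the 24 fell, Calcoco2, for an autophagy receptor, at -0.62 and Obox6, for an oocyte homeobox protein, at -0.70.

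Against Ctrlv2 at day 8, 9 of the 24 were called lower and 2 higher for Arf-B, and 11 lower and 2 higher for Arf-C. Over all genes tested, 16.9% and 16.8% were called lower in Arf-B and Arf-C, and 16.3% and 16.8% higher. Genes that passed the filter through Ctrlv2 libraries alone would be favoured in the lower direction, and they were not counted. With a mean of at least 1 FPKM, 14 of the 24 were tested, and 2 (Arf-B) and 4 (Arf-C) were called lower. The medians were -0.33 and -0.47, beside 0.01 over all genes in each. Usp17lb was at 6.32, 5.61 and 4.10 FPKM for Ctrlv2, at 2.17, 1.45 and 3.06 for Arf-B and at 1.51, 1.65 and 2.02 in Arf-C. All 6 Arf libraries lay below Ctrlv2, and the differences were -0.99 (SE 0.16, adjusted p = 1.78e-04) and -1.21 (2.82e-05). Without overlap with Ctrlv2 were 46.4% (Arf-B) and 44.7% (Arf-C) of all genes tested. Usp17lc was lower, at -0.77 and -0.80, Usp17le at -0.79 and -0.87 and B020004J07Rik at -0.81 and -0.87. Usp17 genes are near-identical copies, so their single values carry the same doubt as those of Zscan4. The 2 higher genes were Calcoco2 and Gm13119, the latter named after its values were seen. Calcoco2 was at 2.52, 2.32 and 2.34 FPKM for Ctrlv2, at 11.7, 13.0 and 18.4 for Arf-B and at 6.27, 8.69 and 11.1 in Arf-C (log2 2.15 and 1.48). Gm13119 was higher by 0.78 and 0.77, and the call was lost with voom in both lines (adjusted p = 0.0658 and 0.0819).

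**Figure D5:**
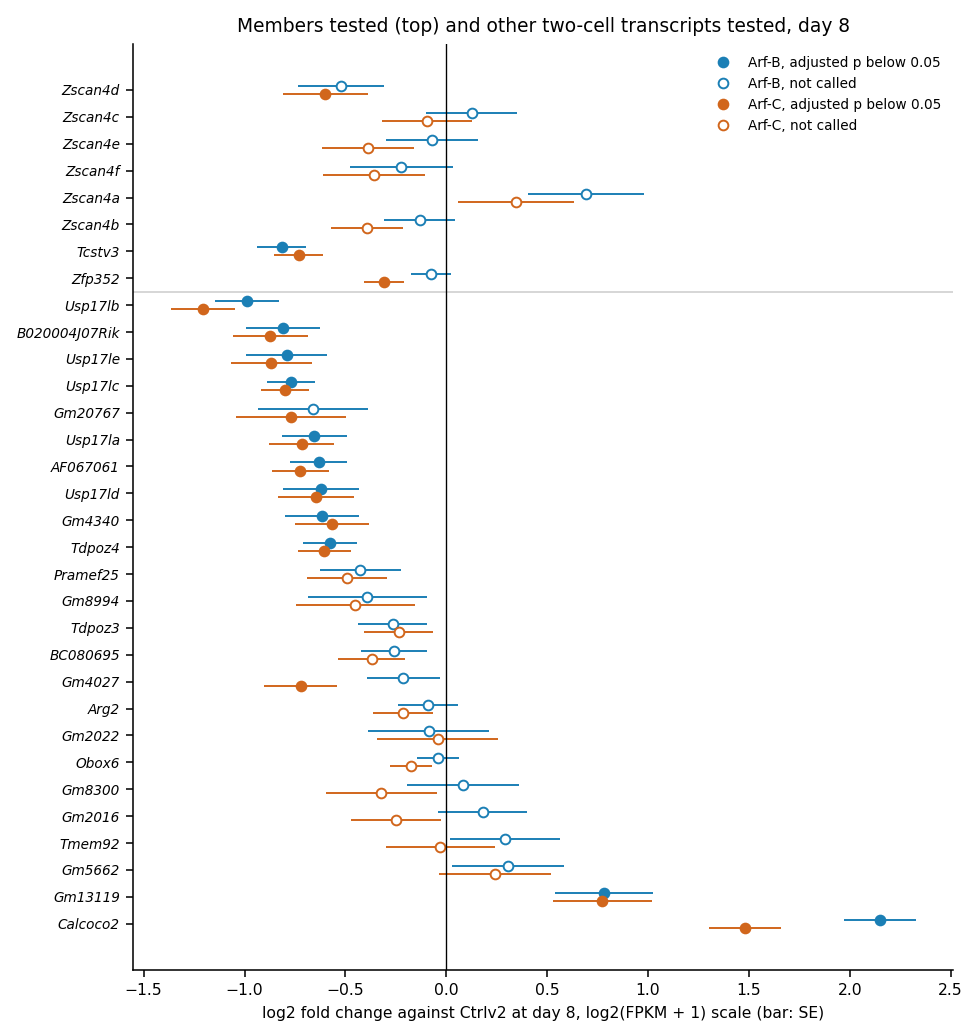
Log2 fold change against Ctrlv2 at day 8 (log2(FPKM + 1) scale, points, with the SE of the fit as bars) for the 8 members tested (top) and the 24 other two-cell transcripts tested (below). Filled points have an adjusted p below 0.05. The 6 Zscan4 rows spread on both sides of 0, Tcstv3 is lower in both Arf lines, and Calcoco2 is the highest of all in both.

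Genes listed here as activators of the state did not share this course. Of 11 listed, 9 are in the table and 8 were tested, and in each line 6 were called lower at day 8 and 1 higher. Of all genes tested 34.4% were called lower in Ctrlv2 and 33.8% in each Arf line. Dppa2 and Dppa4, whose products bind upstream of Dux, fell, at -1.74 and -1.63 in Ctrlv2, at -1.63 and -0.92 in Arf-B and at -1.70 and -0.98 in Arf-C. Tbx3, Trp53 and Usp7 also fell. Zfp281, whose place among activators is uncertain and which the counts above include, fell too, at -0.35 in Ctrlv2 (adjusted p = 0.0423, lost in 8 alternatives). Yap1 rose by 0.67, 0.61 and 0.62. At day 8 Dppa4 was higher than in Ctrlv2 by 0.59 in Arf-B and 0.47 in Arf-C. Duxf3, a copy of the Dux gene, was named after its values were seen. It was too low to test, at 0.265, 0.314 and 0.234 FPKM in Ctrlv2 at day 8, from 11, 9 and 8 reads, and at 0.0673 to 0.410 in the Arf libraries. At day 0 it had at most 6 reads in a library.

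Among 35 tested repressors of the state, 10 were called higher and 16 lower at day 8 for Ctrlv2, 7 and 16 for Arf-B, and 9 and 16 for Arf-C. Over all genes tested, 33.9%, 32.9% and 32.8% were called higher in the 3 lines, and 34.4%, 33.8% and 33.8% lower. Zfp42, which this list also holds, fell, at -5.23, -3.33 and -3.30. Tet1 and Tet2, for enzymes that oxidise methylcytosine, fell, at -2.95 and -2.51 in Ctrlv2, and Zfp57, a guardian of imprints, at -2.81. L3mbtl2, of a noncanonical Polycomb complex, fell, at -1.67, and Dnmt3a, a DNA methyltransferase gene, rose by 1.67 for Ctrlv2, by 0.69 for Arf-B and by 0.84 for Arf-C. The list medians were -0.38, -0.14 and -0.11.

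Telomere and meiotic recombination genes tied to Zscan4 were 14, of which 13 were tested. At day 8 in Ctrlv2 1 was called higher and 7 lower, against 0 and 7 for Arf-B and 0 and 9 for Arf-C, with medians of -0.19, -0.43 and -0.46. The shares of all genes tested were 33.9%, 32.9% and 32.8% called higher, and 34.4%, 33.8% and 33.8% lower. Rtel1, a helicase gene of telomere replication, fell, at -1.75, -2.08 and -2.19. Terf1, for a shelterin protein, fell, at -0.96, -1.59 and -1.34. Dmc1, the meiotic recombinase gene, fell, at -0.88, -0.43 and -0.58, and Pot1a at -0.59, -0.81 and -0.87. Against Ctrlv2 at day 8 the meiotic cohesin gene Smc1b was lower, at -0.86 and -0.99.

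Markers of other cell types were followed beside the members, and their part in the member values was not tested. Between days, 33.9%, 32.9% and 32.8% of all genes tested were called higher (order Ctrlv2, Arf-B, Arf-C), and 34.4%, 33.8% and 33.8% lower. The 7 markers of endoderm treated with retinoic acid were called higher at day 8 in each line (7 of 7), with day 8 sums of 1017 to 1121 FPKM for Ctrlv2, 782 to 884 for Arf-B and 800 to 913 for Arf-C. Against Ctrlv2 at day 8, 3 of these 7 were called higher and 3 lower for Arf-B, and 4 and 2 for Arf-C. Over all genes tested 16.3% and 16.8% were called higher there, and 16.9% and 16.8% lower. Of 5 germ cell markers 3, 4 and 4 were called higher at day 8 (order Ctrlv2, Arf-B, Arf-C), and 2, 1 and 1 lower. Their sums were 32.0 to 97.8 FPKM at day 0 and 684 to 891 at day 8. A sum weighs the most abundant markers most, and the medians over the 5 were only 0.53, 1.27 and 1.34 (log2). Of 5 tested trophoblast markers 4 were called higher in each line, and 0, 1 and 1 lower. All 6 listed summed to 2.80 to 3.49 FPKM at day 0 and 9.16 to 11.8 at day 8 for Ctrlv2. The sums overlapped between days in the Arf lines, at 9.69 to 14.6 and 11.5 to 14.3 FPKM for Arf-B and at 12.8 to 14.3 and 10.5 to 13.1 for Arf-C. Of 4 tested fibroblast or feeder markers 3 were called higher in each line, and 1, 1 and 0 lower. All 6 listed summed to 15.8 to 18.5 FPKM at day 0 in Ctrlv2 and to less, 8.64 to 10.5, at day 8. In the Arf lines the sums were higher at day 8, at no more than 3.86 FPKM at day 0 and 8.89 to 10.3 at day 8.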

How the data were processed

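RNA was measured in 18 libraries, 3 in each of 6 groups of line and day. The deposited table holds FPKM values of 54532 genes, made, per the submitters' processing notes, with HISAT2 and featureCounts on mm10 (DESeq2 is also listed). Read length, strand and the treatment of reads that match several genes were not given in the sources used. Each FPKM value times its gene length was a whole multiple of one step per library, which returned whole reads for 413772 of 413772 values above 0 (100%, tolerance 0.001 reads). The main test was limma 3.58.1 in R 4.3.3 (statmod 1.5.0) on log2(FPKM + 1), with 1 coefficient per group over all 18 libraries and empirical Bayes moderation with trend and robust settings. It covered the 17200 genes that reached 0.5 FPKM in 3 or more libraries. Benjamini-Hochberg adjustment ran over all of those, with calls below 0.05. The scale understates changes of low genes. Errors are SD over 3 libraries or the SE of the fit, and counts of 0 or few reads carry counting error only. The procedure was tested on simulated data, and there the share of false calls in the line comparisons of day 8 was above the threshold used, so calls near it are weak. Tables and figures used Python 3.11.15, pandas 2.3.3, numpy 2.4.6, scipy 1.17.1 and matplotlib 3.10.9.

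The members, the gene lists and the tests were chosen with earlier results of these data known. Every member is named. From each other list up to 6 called genes with the largest changes were named per kind of comparison, and the 5 genes most like the summed Zscan4 level by each of 2 measures. Alternatives were a pseudocount of 0.1, no filter, a mean of at least 1 FPKM, median-ratio scaling, scaling to the same FPKM sum, the compared groups alone, a replicate block, voom on the rebuilt reads, and leaving out each replicate. Copy shares, their alternatives and those for list genes were added after seeing the data. Transcript windows came from GENCODE vM21 and promoters from RefSeq (GRCm38.p6). A result on 1 list gene is not reported here.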

Additional observations from a re-analysis of the deposited data

Results flagged for a closer look

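Tcstv3 was the one member whose day response was called different between lines. It had 2 reads at day 0 in Arf-B and none in Ctrlv2 and Arf-C. A difference in its day response therefore largely repeats that of day 8 and is no separate support. The rise from day 0 to day 8 was smaller than in Ctrlv2 by -0.87 (SE 0.17) on the log2(FPKM + 1) scale in Arf-B (limma, adjusted p = 0.00116) and by -0.73 in Arf-C (adjusted p = 0.00344). At day 8 all 3 Ctrlv2 libraries lay above all 6 Arf libraries, at 0.710 to 1.42 FPKM against 0.138 to 0.404. These values rest on 7 to 17 reads per library in Ctrlv2 and on 2 to 6 in the Arf lines. At day 8, 46.4% (Arf-B) and 44.7% (Arf-C) of all genes tested did not overlap with Ctrlv2, in either direction. Tcstv3 passed the filter on low values through those 3 Ctrlv2 libraries alone, so the filter favoured this difference, and with no filter the adjusted p was 0.00183 and 0.00531. Of all genes tested 33.5% in Arf-B and 38.3% in Arf-C were called different in day response. Of 10 embryonic stem cell markers, 10 and 9 were called higher in this difference, and of 9 primitive and parietal endoderm markers 7 and 6 lower, and their part in it was not tested. Over 19 alternatives the Arf-B difference was called in 19 (adjusted p from 7.88e-05 to 0.0361), and the Arf-C difference in 18 (from 2.16e-04 to 0.180, the last with voom).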

How the results depend on the processing

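Depth limits Tcstv1, Tcstv3, Zfp352 and all day 0 values, and copies of Zscan4 share reads. Counts of called members stayed within 1.5 times under most alternatives, and the cause of the following changes was not tested unless named. With a mean of at least 1 FPKM, fewer members are tested (5), and the calls were 5 in the day response of Ctrlv2, 0 (Arf-B) and 1 (Arf-C) against Ctrlv2 at day 8, and 0 and 0 in the differences of day response. Scaling to the same FPKM sum gave 2 in Arf-B at day 8. A pseudocount of 0.1, the compared groups alone and voom each gave 1 in Arf-C at day 8, and voom gave 0 in the difference of day response of Arf-C. Leaving out 1 replicate gave 1 to 2 calls (Arf-B) and 1 to 5 (Arf-C) at day 8, 6 to 8 in the day response of Arf-C and 1 to 2 in its difference from Ctrlv2. The 2 came without replicate 1 or 3 of Arf-C at day 8. Uncalled differences changed sign at day 8 for Zscan4e in Arf-B (0.032 with the same FPKM sum, and -0.24 to 0.056 leaving out 1 replicate), Zscan4c in Arf-B (-0.091 to 0.24) and Zscan4c in Arf-C (-0.38 to 0.20). Replicates 2 and 3 of Arf-B and 1 of Arf-C were those whose absence turned the sign. Scaling to the same sum moved the median of all genes from -0.02 to 0.13 in the day response of Arf-B and from -0.02 to 0.11 in Arf-C, and the share of higher genes among the calls from 49.4% to 62.2% and from 49.2% to 60.1%. At day 8 it moved that share from 49% to 68.9% in Arf-B and from 50% to 63.5% in Arf-C, and in the difference of day response of Arf-B from 52.1% to 64.2%. With a mean of at least 1 FPKM, 14 of the 24 other two-cell transcripts were tested. Of these 14, 13 were called higher and 1 lower in the day response of Ctrlv2, and 14 higher in Arf-C. Against Ctrlv2 at day 8, 2 of the 14 were called lower in Arf-B and 4 in Arf-C. Over all 24, a pseudocount of 0.1 and the compared groups alone left 7 lower in Arf-C. Voom, the compared groups alone, and single libraries left out (replicate 2 of Ctrlv2, 3 of Arf-B, 2 or 3 of Arf-C) left 1 higher. The share differences of Zscan4a, Zscan4c and Zscan4d were larger over the 6 members alone (Zscan4d -9.12 points in Arf-B against -6.85). Pairing by replicate number was looked for over all genes tested. In 0 of 15 pairs of groups did all same-numbered libraries deviate together beyond 0.1 (r from -0.251 to 0.203). Of 18 libraries, 7 correlated best with their own number. This rule cannot show whether same-numbered libraries shared a culture or a run. Between Arf-B and Arf-C at day 8, r was 0.096, -0.014 and 0.143 for replicates 1, 2 and 3. In both of these groups replicate 3 was the highest for all 6 Zscan4 members. With a replicate block no count of members moved beyond 1.5 times, and Zfp352 was called in the day response of Arf-C (log2 0.23, adjusted p = 0.0354).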
